A study of Homo sapiens with 16 samples.

Results

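The 46 genes described here make, desaturate, lengthen, activate, take up, store and release fatty acids. They were taken by symbol from a table of 26475 genes, and all 46 were found. They fall into 9 roles: 8 synthesis enzymes, 3 lipogenic regulators, 5 desaturases, 6 elongases, 4 acyl-CoA synthetases that activate fatty acids, 7 genes of uptake and carriage, 6 of glycerolipid assembly, 3 of droplet storage and 4 of lipolysis. After the filter on low counts 16012 genes were tested, among them 44 of the 46. THRSP, a small nuclear protein tied to lipogenesis, and ELOVL7, an elongase, were too low to test.

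The RNA came from A375 MA2-Luc, an established human melanoma line that carries luciferase. Immunodeficient NSG mice received 250000 cells each behind the eye, and the samples are labelled as metastases from the lung. There were 4 groups of 4 libraries of poly-A RNA: High Fat diet with no treatment, High Fat diet with BRAF-Kinase and MEK 1/2 inhibitors, Ketogenic diet with no treatment, and Ketogenic diet with the same inhibitors, which were given by oral gavage 3 times a week for 5 weeks. The sources used here name no drug, dose or age of the mice. No sham gavage is stated for the untreated mice, so gavage and inhibitors cannot be told apart, and no group had an ordinary diet. The host strain lacks T, B and NK cells, and all groups share 1 tumour line. The series' design text also mentions cultured cells, so whether tumour cells were cultured before extraction is not settled. It calls the replicates biological but does not say that each came from its own mouse, so p-values measure the spread between these libraries, which may be in part technical.

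Cells build fatty acids from cytosolic acetyl-CoA: ATP citrate lyase supplies it, acetyl-CoA carboxylase turns it into malonyl-CoA, and fatty acid synthase joins the units into palmitate. Desaturases and elongases then modify the chain, acyl-CoA synthetases couple it to coenzyme A, and acyltransferases build triglyceride, which is stored in droplets coated by perilipins and released again by lipases. Cells can also take fatty acids from outside through lipoprotein lipase, CD36, the SLC27 transporters and fatty acid binding proteins. SREBP-1, encoded by SREBF1, is a main activator of the synthesis and desaturase genes, and melanoma cells are known both to make fatty acids and to take them up from neighbouring fat cells.

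Promoter sequences are shown for 5 genes described below that have a single RefSeq start: SCD, the main desaturase, both SLC27 transporters, the droplet protein PLIN3 and the lipase PNPLA2. Each is the 250 bases before the RefSeq start on GRCh38.p14, read 5′ to 3′ on the gene's own strand, with capitals marking matches to the motifs searched. They lie at chr10:100346983-100347232 (SCD, plus strand), chr19:17470274-17470523 (SLC27A1, plus strand), chr9:128340277-128340526 (SLC27A4, plus strand), chr19:4867668-4867917 (PLIN3, minus strand) and chr11:818664-818913 (PNPLA2, plus strand).
SCD: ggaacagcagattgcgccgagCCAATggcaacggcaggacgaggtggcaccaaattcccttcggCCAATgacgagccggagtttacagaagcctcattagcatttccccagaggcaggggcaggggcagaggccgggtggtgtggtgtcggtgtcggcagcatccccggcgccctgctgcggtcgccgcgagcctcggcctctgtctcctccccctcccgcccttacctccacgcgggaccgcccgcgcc
SLC27A1: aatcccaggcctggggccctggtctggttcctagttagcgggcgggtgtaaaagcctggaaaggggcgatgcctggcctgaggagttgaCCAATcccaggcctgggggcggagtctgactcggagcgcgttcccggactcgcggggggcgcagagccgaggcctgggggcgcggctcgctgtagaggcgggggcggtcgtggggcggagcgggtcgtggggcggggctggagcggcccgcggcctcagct
SLC27A4: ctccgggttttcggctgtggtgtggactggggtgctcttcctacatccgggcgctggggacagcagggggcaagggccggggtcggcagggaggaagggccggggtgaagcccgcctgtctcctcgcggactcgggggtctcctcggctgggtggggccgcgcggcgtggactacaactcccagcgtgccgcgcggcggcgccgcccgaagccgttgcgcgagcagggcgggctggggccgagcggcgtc
PLIN3: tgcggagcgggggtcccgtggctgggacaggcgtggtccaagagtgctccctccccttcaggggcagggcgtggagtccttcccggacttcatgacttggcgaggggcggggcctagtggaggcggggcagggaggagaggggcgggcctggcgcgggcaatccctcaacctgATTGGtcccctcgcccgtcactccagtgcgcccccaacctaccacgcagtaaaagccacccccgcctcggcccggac
PNPLA2: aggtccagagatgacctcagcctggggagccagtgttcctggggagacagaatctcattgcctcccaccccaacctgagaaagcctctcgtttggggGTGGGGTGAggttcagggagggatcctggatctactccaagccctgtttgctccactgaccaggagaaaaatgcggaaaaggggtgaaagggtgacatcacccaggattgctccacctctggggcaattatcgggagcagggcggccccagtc

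The motifs, searched on both strands, were TCACNCCAC (a sterol regulatory element, bound by SREBP), CACGTG (an E-box), CCAAT (bound by NF-Y, a common partner of SREBP) and a PPAR response element (AGGTCA repeated after 1 spacer base). None of these letter strings contains another. CCAAT occurred in the promoters of SCD (2 matches), SLC27A1 (1) and PLIN3 (1, on the other strand). The sterol regulatory element occurred in that of PNPLA2, 153 bases before the start and on the other strand, and SLC27A4 held no match. The RefSeq table gave 61 windows for 38 of the 46 genes. CCAAT stood in 34.4% of these windows and in 32% of all 35116 windows. The E-box stood in 6.56% against 6.34%, the sterol regulatory element in 3.28% (2 windows, PNPLA2 and 1 of the 5 of ACSL1) against 0.883%, and the PPAR response element in 0 of 61 against 0.0171%. These are matches of letters, and no binding was measured.

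Library totals ran from 37.1 to 77.3 M estimated counts. Ribosomal RNA took 21.7 to 50.0% of the counts in the untreated high fat libraries, 15.01 to 20.0% in the treated high fat libraries, 15.2 to 33.7% in the untreated ketogenic and 4.10 to 8.37% in the treated ketogenic libraries. It exceeded 30% in 3 libraries, untreated high fat replicates 2 and 3 and untreated ketogenic replicate 2, and its part in the results below was not tested beyond the fits given with them. SOX10 averaged 797 CPM (a gene's counts over the scaled library total, the usual edgeR unit), MITF 116 CPM and PRAME 191 CPM over all 16 libraries, while the pigment genes PMEL and MLANA were low, at 1.91 and 0.222 CPM. Of the fat cell markers, FABP4 and TUSC5 had no count in any library, ADIPOQ and LEP had group means of at most 0.0169 CPM, and LEPR made up most of the summed level of the list.

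Unless said otherwise, values are CPM on library sizes scaled by TMM, an edgeR method that sets libraries to a common centre, and are listed by replicate number. A fold change is given on the log2 scale as edgeR fitted it, with its standard error (SE), over 4 libraries per group, and adjusted p-values are from edgeR's quasi-likelihood test with Benjamini-Hochberg adjustment over all 16012 genes. A gene is said to have changed where its adjusted p was under 0.05. In bulk RNA, fewer cells of a type and less RNA per cell cannot be told apart.

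Together the 46 genes made up 0.285 to 0.366% of the scaled counts of a library. Their sum was 2944 to 3447 CPM in the untreated high fat group, 3011 to 3333 CPM with inhibitors, 3322 to 3655 CPM in the untreated ketogenic group and 2849 to 3396 CPM with inhibitors, so the ranges of the groups overlapped. Per kilobase of exon, the highest mean levels over all libraries were those of ACSL3 at 61.4, SCD at 53.7, PLIN2 at 53.3, FASN at 51.2 and ACLY at 43.7 CPM per kilobase. Thus genes of activation, desaturation, droplet coating and synthesis led, and CD36 stood at 0.0699 and THRSP at 0.00822 CPM per kilobase.

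**Figure D1:**
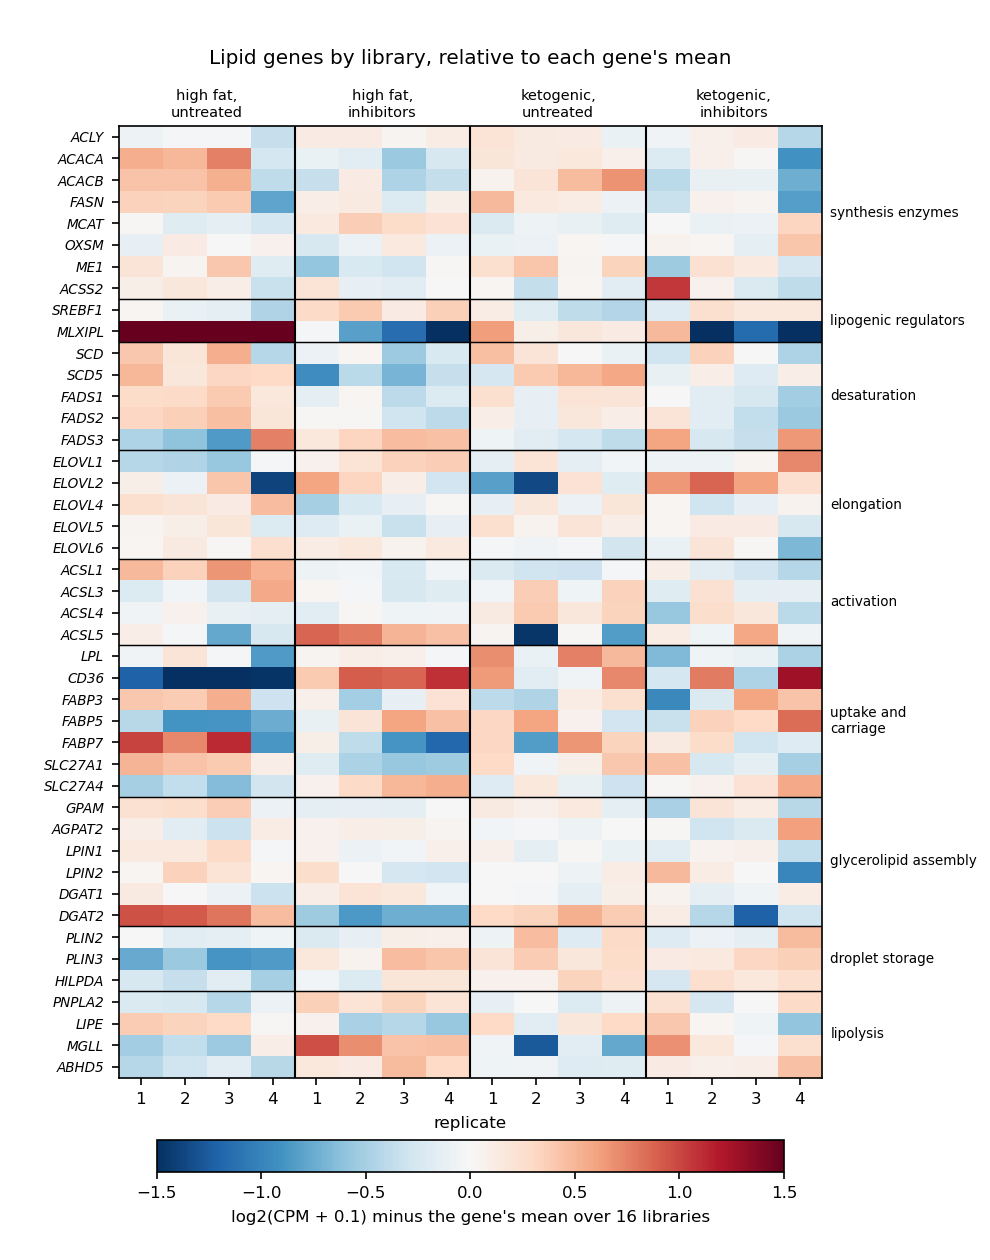
Each row is 1 of the 44 tested lipid genes, ordered by role, and each column 1 of the 16 libraries, grouped by diet and treatment. Colour gives log2(CPM + 0.1) minus the gene's mean over the 16 libraries, limited to 1.5 either way. The untreated high fat libraries are low for CD36 and PLIN3 and high for MLXIPL and ACSL1, and untreated high fat replicate 4 differs from its group in FASN, SCD and FADS3.

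On the high fat diet the inhibitors went with changes in 21 of the 44 tested genes, 10 higher and 11 lower, or 47.7%. Over all tested genes 42.3% changed, 20.6% higher and 21.7% lower, so the share among the lipid genes was near the background. Their median log2 fold change was -0.06, against -0.03 for all genes. The values of the treated and untreated libraries did not overlap for 20 of the 44 genes, 12 higher and 8 lower, against 44.7% of all genes, 22.5% higher and 22.2% lower. With libraries scaled by their size alone, 14 rose and 3 fell, and the median of all genes moved to 0.25, so every direction below is relative to that centre. Without the 3 libraries over 30% ribosomal RNA 13 of the 21 were called, and ACACA, MCAT, SREBF1, FADS1, FADS2, ELOVL1, FABP7 and LIPE were not. That fit keeps only replicates 1 and 4 of the untreated high fat group.

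On the ketogenic diet none of the 44 changed with the inhibitors, where 1.74% of all genes did, 0.856% higher and 0.887% lower. The groups did not overlap for 3 of the 44 higher and 3 lower, against 5.26% and 5.01% of all genes. At an unadjusted p under 0.05 there were 10, and DESeq2 called 5 of the 44: LPL, DGAT2 and ACACB lower, ELOVL2 and MGLL higher. Between the diets without inhibitors 5 of 44 changed (11.4%), 4 higher and 1 lower on the ketogenic diet, against 13.5% of all genes, 7.99% higher and 5.51% lower. The untreated groups did not overlap for 9 of 44, against 25.5% of all genes. Between the diets with inhibitors none changed by edgeR or DESeq2, 2 had an unadjusted p under 0.05, and 0.169% of all genes changed. The inhibitor effect itself differed between the diets for 4 of 44 (9.09%), 1 higher and 3 lower, against 9.02% of all genes, 4.36% higher and 4.66% lower. These comparisons share groups: the untreated high fat libraries serve in 3 of them.

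**Figure D2:**
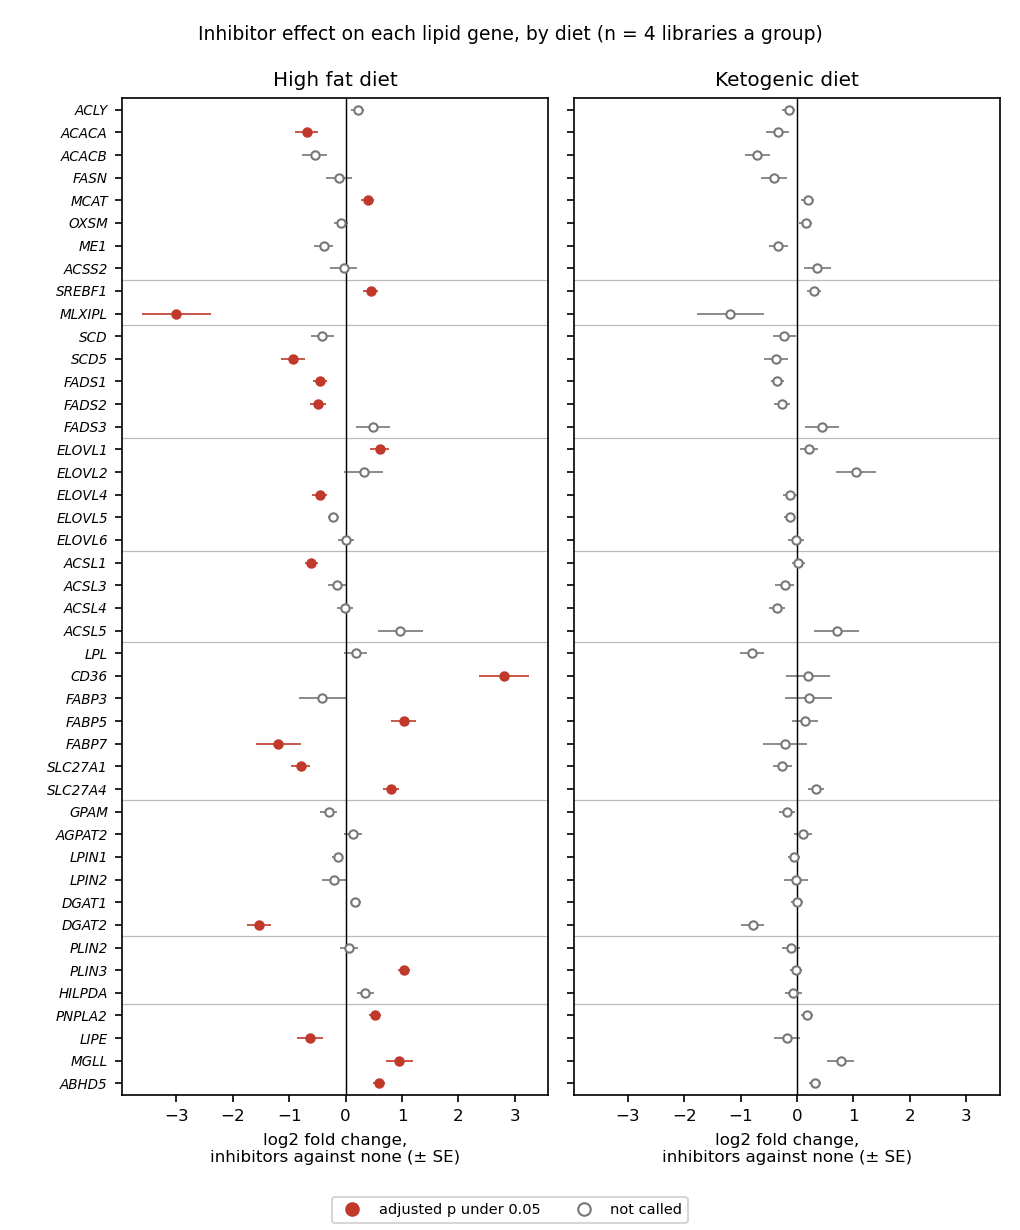
Points give the log2 fold change of each tested lipid gene with inhibitors against none, with bars of 1 SE, on the high fat diet (left) and on the ketogenic diet (right), 4 libraries per group. Filled red points have an adjusted p under 0.05. There are 21 on the left and 0 on the right, and CD36 at 2.80 and MLXIPL at -3.00 lie farthest out.

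Among the synthesis enzymes on the high fat diet, 1 of 8 rose and 1 fell, with a median of -0.10. Over all genes 20.6% rose and 21.7% fell. ACACA, acetyl-CoA carboxylase 1 (chr17:37084988-37406818, hg38), stood at 121, 117, 140 and 69.1 CPM untreated and at 77.2, 73.8, 56.2 and 70.2 CPM with inhibitors. It read 93.5, 90.6, 91.9 and 86.9 CPM in the untreated and 71.6, 86.9, 83.4 and 44.1 CPM in the treated ketogenic libraries. The 3 first untreated high fat libraries lay above all treated ones and replicate 4 lay among them. ACACA fell by 0.69 (SE 0.20, adjusted p 0.0125 by edgeR) on the high fat diet, and without untreated high fat replicate 3 the adjusted p was 0.0526. The call also ended under scaling by library size alone (-0.37, adjusted p 0.137), with ribosomal RNA share in the model (-0.59, adjusted p 0.0907) and without the 3 libraries over 30% ribosomal RNA (-0.47, adjusted p 0.173). The ketogenic groups differed by -0.34 (SE 0.20, adjusted p 0.38 by edgeR).

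FASN, fatty acid synthase (chr17:82078333-82098332), read 590, 587, 612 and 269 CPM in the untreated high fat libraries and 498, 511, 404 and 496 CPM with inhibitors. In the ketogenic libraries it read 650, 516, 503 and 439 CPM untreated and 369, 486, 479 and 262 CPM with inhibitors. Replicate 4 was the lowest of its group in each group but the treated high fat one, and the groups overlapped. The log2 changes with inhibitors were -0.11 (SE 0.23) and -0.40 (SE 0.23), with adjusted p of 0.728 and 0.37 by edgeR. Without untreated high fat replicate 4 the high fat groups no longer overlapped, and the change was -0.32 (SE 0.18, adjusted p 0.162 by edgeR).

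ACACB, the mitochondrial carboxylase whose product restrains fatty acid oxidation, was lower with inhibitors by similar amounts on both diets, without passing the test. Its levels were 6.45, 6.43, 6.89 and 3.62 CPM untreated and 3.71, 5.19, 3.43 and 3.68 CPM treated on the high fat diet. Ketogenic libraries held 4.92, 5.43, 6.66 and 7.62 CPM untreated and 3.57, 4.41, 4.37 and 2.81 CPM treated, with no overlap between those groups. The changes were -0.55 (SE 0.22, adjusted p 0.0572) and -0.70 (SE 0.22, adjusted p 0.113) by edgeR. Without untreated high fat replicate 4 the first was -0.72 with an adjusted p of 0.00989.

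MCAT, the mitochondrial malonyl transferase, rose on the high fat diet. It went from 11.9, 10.4, 10.6 and 9.75 CPM to 13.0, 15.2, 14.2 and 13.6 CPM there, and stood at 10.1, 11.1, 10.8 and 10.3 CPM untreated and 11.7, 10.9, 10.98 and 14.7 CPM treated on the ketogenic diet. The high fat groups did not overlap, and the rise was 0.39 (SE 0.11, adjusted p 0.0112 by edgeR). The other 4 enzymes did not pass the test: ACLY, the citrate lyase, with group means of 209 to 243 CPM, ME1, which supplies NADPH, with 18.8 to 27.0 CPM, ACSS2, which activates acetate, with 59.1 to 75.8 CPM, and OXSM, a mitochondrial synthase, with 12.6 to 14.1 CPM. OXSM shares 536 exon bases (21.6%) with NGLY1 on the opposite strand, and the strand setting is not given, so its counts are uncertain.

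**Figure D3:**
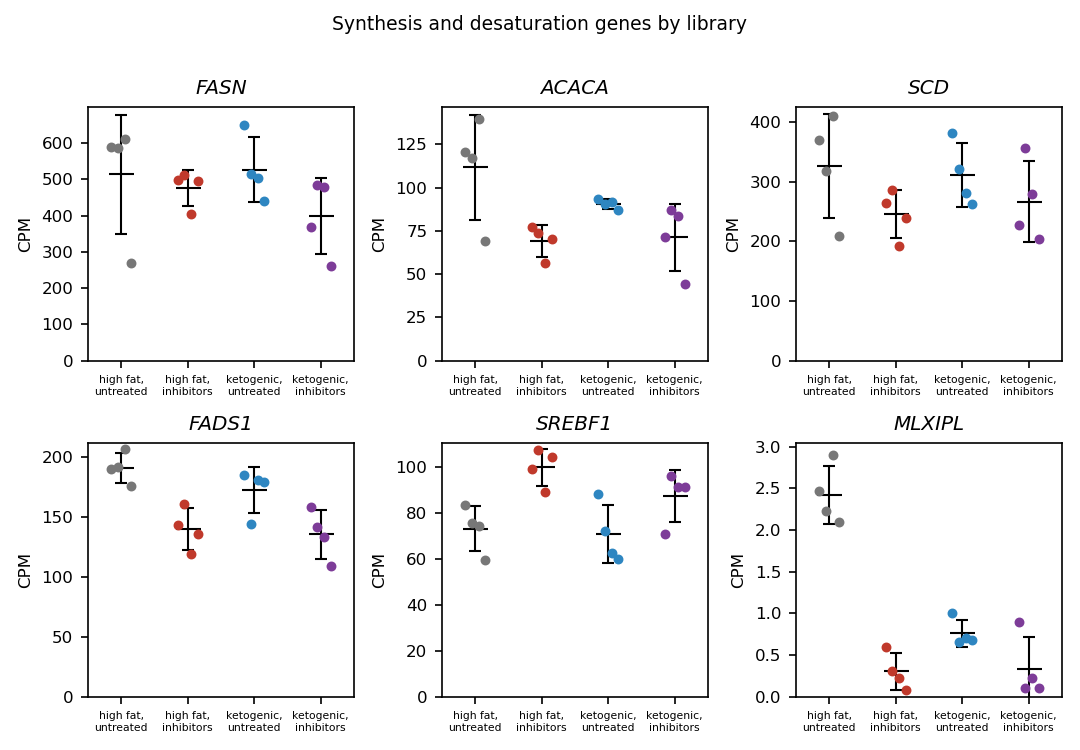
CPM of 6 synthesis, desaturation and regulator genes in each library, with group means and bars of 1 SD, 4 libraries per group, on linear axes from 0. In FASN, ACACA and SCD untreated high fat replicate 4 lies at 269, 69.1 and 208 CPM, below the other 3 of its group, and the untreated high fat libraries of MLXIPL, at 2.1 to 2.90 CPM, lie above the other 12.

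Both tested regulators changed on the high fat diet, in opposite directions, where 42.3% of all genes changed. SREBF1, which encodes SREBP-1 (chr17:17810399-17837002), rose from 83.4, 75.8, 74.4 and 59.5 CPM to 99.2, 107, 89.1 and 104 CPM, without overlap. Its log2 change was 0.45 (SE 0.13, adjusted p 0.0126 by edgeR). In the ketogenic libraries it read 88.4, 72.1, 62.8 and 60.2 CPM untreated and 71.0, 96.2, 91.2 and 91.3 CPM treated, with a change of 0.30 (SE 0.13, adjusted p 0.233 by edgeR). MLXIPL encodes ChREBP, the carbohydrate-responsive activator of the same enzymes. It was low throughout, at 2.46, 2.23, 2.90 and 2.1 CPM untreated and 0.600, 0.304, 0.223 and 0.0814 CPM treated on the high fat diet. The ketogenic libraries read 1.01, 0.658, 0.701 and 0.679 CPM untreated and 0.900, 0.103, 0.220 and 0.104 CPM treated. No library of another group reached the untreated high fat libraries. MLXIPL fell by 3.00 (SE 0.61, adjusted p 0.00118 by edgeR) on the high fat diet. The change between untreated diets was -1.66 (SE 0.57, adjusted p 0.061 by edgeR, and 0.0182 by DESeq2). THRSP had group means of 0 to 0.0196 CPM.

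Of the 5 desaturases, 3 fell on the high fat diet and none rose, with a median of -0.45, where 21.7% of all genes fell and 20.6% rose. These 3 calls are lost when libraries are scaled by size alone, where the changes were -0.67 for SCD5, -0.16 for FADS1 and -0.20 for FADS2. SCD, stearoyl-CoA desaturase (chr10:100347124-100364834), which makes oleate, did not pass the test at -0.41 (SE 0.21, adjusted p 0.115 by edgeR). It stood at 371, 319, 410 and 208 CPM untreated and at 265, 286, 193 and 239 CPM with inhibitors. The ketogenic libraries read 382, 321, 281 and 262 CPM untreated and 228, 357, 279 and 203 CPM treated. Without untreated high fat replicate 4 the change was -0.58 with an adjusted p of 0.0209 by edgeR.

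SCD5, a further stearoyl-CoA desaturase at a far lower level, fell by 0.94 (SE 0.21, adjusted p 0.00245 by edgeR). It read 3.26, 2.58, 2.85 and 2.83 CPM untreated and 1.15, 1.71, 1.37 and 1.77 CPM treated on the high fat diet, and 1.90, 3.03, 3.25 and 3.47 CPM untreated and 2.11, 2.46, 1.98 and 2.45 CPM treated on the ketogenic diet. FADS1, the delta-5 desaturase of polyunsaturated fatty acids, read 190, 192, 207 and 176 CPM untreated and 143, 161, 119 and 136 CPM treated on the high fat diet. It read 185, 144, 181 and 179 CPM untreated and 158, 141, 134 and 109 CPM treated on the ketogenic diet. For both genes the high fat groups did not overlap and the ketogenic groups did. FADS1 fell by 0.45 (SE 0.12, adjusted p 0.00704 by edgeR) on the high fat diet.

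FADS2, the delta-6 desaturase, fell with a mean of 20.3 ± 1.57 (SD, n = 4) CPM untreated and 14.5 ± 2.13 (SD, n = 4) CPM treated. Its change of -0.49 (SE 0.15, adjusted p 0.0142 by edgeR) had an adjusted p of 0.0528 without treated high fat replicate 4. FADS1 and FADS2 lie on opposite strands and share 490 exon bases, so part of the reads may be shared between them. FADS3, a related gene, read 10.9, 9.90, 8.33 and 25.7 CPM untreated and 16.8 to 20.9 CPM treated. It did not pass the test at 0.49 (SE 0.30, adjusted p 0.197 by edgeR), and without untreated replicate 4 the change was 0.99 with an adjusted p of 0.00222.

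The elongases did not move one way: on the high fat diet 1 of 5 tested rose and 1 fell, with a median of 0.00. Over all genes 20.6% rose and 21.7% fell. ELOVL1, which extends saturated very long chains, rose by 0.61 (SE 0.17, adjusted p 0.00805 by edgeR) from 43.1 to 62.8 CPM untreated to 66.9 to 82.6 CPM treated. ELOVL4, which makes the longest chains, fell by 0.46 (SE 0.13, adjusted p 0.00951 by edgeR) from 16.5 to 20.9 CPM to 10.7 to 15.3 CPM. Neither pair of groups overlapped, and the fall of ELOVL4 is lost under scaling by library size alone.

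ELOVL5, the most abundant elongase in CPM, acts on polyunsaturated chains. It read 111, 114, 123 and 93.1 CPM untreated and 94.3, 100, 85.6 and 98.8 CPM treated on the high fat diet, and 128, 112, 123 and 115 CPM untreated and 110, 118, 117 and 91.4 CPM treated on the ketogenic diet. ELOVL6, which turns palmitate into stearate, read 25.0, 26.9, 24.7 and 29.2 CPM and 26.3, 27.3, 25.3 and 27.1 CPM in the high fat groups, then 24.2, 23.5, 24.1 and 20.2 CPM and 22.9, 27.99, 24.8 and 15.3 CPM in the ketogenic groups. Neither changed in any of the 5 comparisons.

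ELOVL2, which elongates docosahexaenoate precursors, had its largest difference on the ketogenic diet. It read 4.13, 2.82, 8.53 and 6.48 CPM untreated and 11.6, 13.5, 11.2 and 8.77 CPM treated there, without overlap. The high fat libraries read 7.79, 6.91, 9.84 and 2.73 CPM and 11.1, 9.17, 7.84 and 5.97 CPM. The changes were 1.04 (SE 0.35, adjusted p 0.135) and 0.32 (SE 0.35, adjusted p 0.476) by edgeR. ELOVL7 averaged 0.0663 CPM.

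Of the acyl-CoA synthetases, ACSL1, which channels fatty acids to storage or oxidation depending on the tissue (chr4:184755595-184826818), set the untreated high fat group apart from all others. It read 90.9, 82.3, 103 and 93.0 CPM there, 61.4, 62.8, 55.2 and 63.0 CPM with inhibitors, 55.7, 52.8, 52.2 and 64.3 CPM in the untreated ketogenic group, and 69.8, 57.6, 53.1 and 48.4 CPM in the treated ketogenic group. No library of the other 3 groups reached the untreated high fat libraries, and those 3 groups overlapped each other. ACSL1 fell by 0.61 (SE 0.11, adjusted p 0.000572 by edgeR) with inhibitors on high fat feed and was lower by 0.71 on the log2 scale on the untreated ketogenic diet (log2 change -0.71, SE 0.11, adjusted p 0.00235 by edgeR). The inhibitor effect on the ketogenic diet was 0.02 (SE 0.11), and the difference of effects was 0.63 (SE 0.16, adjusted p 0.0253 by edgeR). That difference had an adjusted p of up to 0.0627 when single libraries were left out, past 0.05 in 5 of 16 cases, of 0.109 with ribosomal RNA share in the model, and of 0.168 under scaling by library size alone. The high fat fall loses its call under scaling by library size alone, at -0.32 with an adjusted p of 0.128.

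The other synthetases did not change. Thus 1 of 4 fell with inhibitors on the high fat diet, against 21.7% of all genes. Between the untreated diets 1 of 4 was lower on the ketogenic diet, against 5.51% of all genes. ACSL3, which resides on the endoplasmic reticulum and nascent droplets, was the most abundant of the 46 genes per kilobase. It read 379, 426, 361 and 648 CPM and 446, 431, 371 and 387 CPM in the high fat groups, and 427, 566, 420 and 558 CPM and 385, 512, 396 and 401 CPM in the ketogenic groups. ACSL4, which prefers arachidonate and other polyunsaturated chains, read 102, 111, 98.4 and 96.9 CPM and 94.5, 108, 102 and 103 CPM on the high fat diet. Its ketogenic values were 117, 139, 119 and 134 CPM untreated and 71.7, 127, 119 and 80.4 CPM treated, a change of -0.35 (SE 0.14, adjusted p 0.208 by edgeR). The untreated ketogenic libraries lay above the untreated high fat ones for ACSL4, at 0.32 (SE 0.14, adjusted p 0.148 by edgeR). ACSL5, a mitochondrial synthetase, was low, and its treated high fat libraries at 0.846 to 1.18 CPM lay above the untreated ones at 0.311 to 0.648 CPM, at 0.97 (SE 0.39, adjusted p 0.0556 by edgeR).

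Among the genes of uptake and carriage, 3 of 7 rose and 2 fell on the high fat diet, where 20.6% of all genes rose and 21.7% fell. On the untreated ketogenic diet 2 of the 7 were higher, against 7.99% of all genes. CD36, the scavenger receptor that takes up long chain fatty acids (chr7:80369575-80679277), was the lowest in the untreated high fat group, at 0.205, 0.152, 0.144 and 0.157 CPM. With inhibitors it read 0.837, 1.23, 1.197 and 1.42 CPM on the high fat diet. The ketogenic libraries read 1.01, 0.536, 0.584 and 1.07 CPM untreated and 0.491, 1.12, 0.417 and 1.61 CPM treated. No untreated high fat library reached any other library, but all levels were low and the 4 untreated high fat libraries held 35 counts in all. CD36 rose by 2.80 (SE 0.44, adjusted p 0.000202 by edgeR) with inhibitors on high fat feed and was higher by 2.25 (SE 0.44, adjusted p 0.00582 by edgeR) on the untreated ketogenic diet. Its inhibitor effect on that diet was 0.20 (SE 0.40), and the difference of effects was -2.61 (SE 0.59, adjusted p 0.0194 by edgeR). That difference had an adjusted p of 0.105 with ribosomal RNA share in the model.

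FABP5, an intracellular fatty acid carrier on chromosome 8, was likewise lowest in the untreated high fat group. It read 22.5, 16, 16.2 and 17.8 CPM untreated and 27.8, 34.4, 45.2 and 40.7 CPM treated on the high fat diet. Its ketogenic values were 37.2, 45.1, 31.4 and 24.5 CPM untreated and 23.8, 38.3, 36.8 and 53.8 CPM treated. The untreated high fat libraries lay below all others. FABP5 rose by 1.03 (SE 0.23, adjusted p 0.00222 by edgeR) with inhibitors and was higher by 0.93 (SE 0.23, adjusted p 0.0152 by edgeR) on the untreated ketogenic diet, and the second call is lost without untreated ketogenic replicate 2 (adjusted p 0.0628). The difference of inhibitor effects was -0.89 (SE 0.32, adjusted p 0.0848 by edgeR). FABP5 has 13 named pseudogenes, so its counts may be shared with near copies.

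SLC27A4, a fatty acid transport protein with acyl-CoA synthetase activity (chr9:128340646-128361470), and SLC27A1, a related transporter (chr19:17468769-17506168), moved in opposite directions on the high fat diet. SLC27A4 rose from 24.8, 27.0, 22.4 and 28.9 CPM to 36.7, 42.9, 49.4 and 51.1 CPM. In the ketogenic groups it read 30.6, 39.1, 32.6 and 28.2 CPM and 35.5, 36.8, 40.8 and 51.8 CPM. The high fat groups stood clear of each other and the ketogenic ones overlapped, with changes of 0.80 (SE 0.14, adjusted p 0.00042) and 0.34 (SE 0.14, adjusted p 0.21) by edgeR. SLC27A1 fell from 43.5, 41.1, 39.9 and 32.6 CPM to 26.9, 21.9, 20.5 and 21.0 CPM. It read 37.5, 29.4, 32.5 and 40.2 CPM and 41.4, 25.6, 27.5 and 21.6 CPM in the ketogenic groups, again with overlap. Its changes were -0.80 (SE 0.17, adjusted p 0.00162) and -0.26 (SE 0.17, adjusted p 0.422) by edgeR. The promoters printed above for these transporters share no motif match, since only that of SLC27A1 held one. By the gene coordinates given here, which are GENCODE's, the window of SLC27A1 lies inside the gene. That of SLC27A4 lies before its gene, so the windows are not placed alike.

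LPL, the lipase that frees fatty acids from lipoproteins, was the most abundant gene of this role in CPM and lies on chromosome 8. It read 136, 162, 140 and 78.1 CPM untreated and 145, 151, 149 and 138 CPM treated on the high fat diet, and 228, 132, 239 and 197 CPM untreated and 89.5, 135, 132 and 102 CPM treated on the ketogenic diet. The untreated ketogenic group was the highest apart from its replicate 2. The inhibitor effect was 0.18 (SE 0.20) on the high fat and -0.80 (SE 0.21, adjusted p 0.0587 by edgeR, 0.00699 by DESeq2) on the ketogenic diet. Their difference was -0.97 (SE 0.29, adjusted p 0.0463 by edgeR), which passed 0.05 when 1 library was left out in 10 of 16 cases, to at most 0.098. Its adjusted p was 0.142 with ribosomal RNA share in the model and 0.0834 under scaling by library size alone.

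FABP7, a carrier of the neural crest lineage, fell by 1.19 (SE 0.39, adjusted p 0.0248 by edgeR) on the high fat diet. It read 25.8, 21.1, 27.7 and 6.91 CPM untreated and 13.5, 9.78, 6.88 and 5.56 CPM treated, so untreated replicate 4 lay among the treated libraries. The call was lost in 4 of 8 fits that left out 1 library, with an adjusted p of up to 0.0749. FABP3, the heart-type carrier, had group means of 0.442 to 0.606 CPM and did not change.

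**Figure D4:**
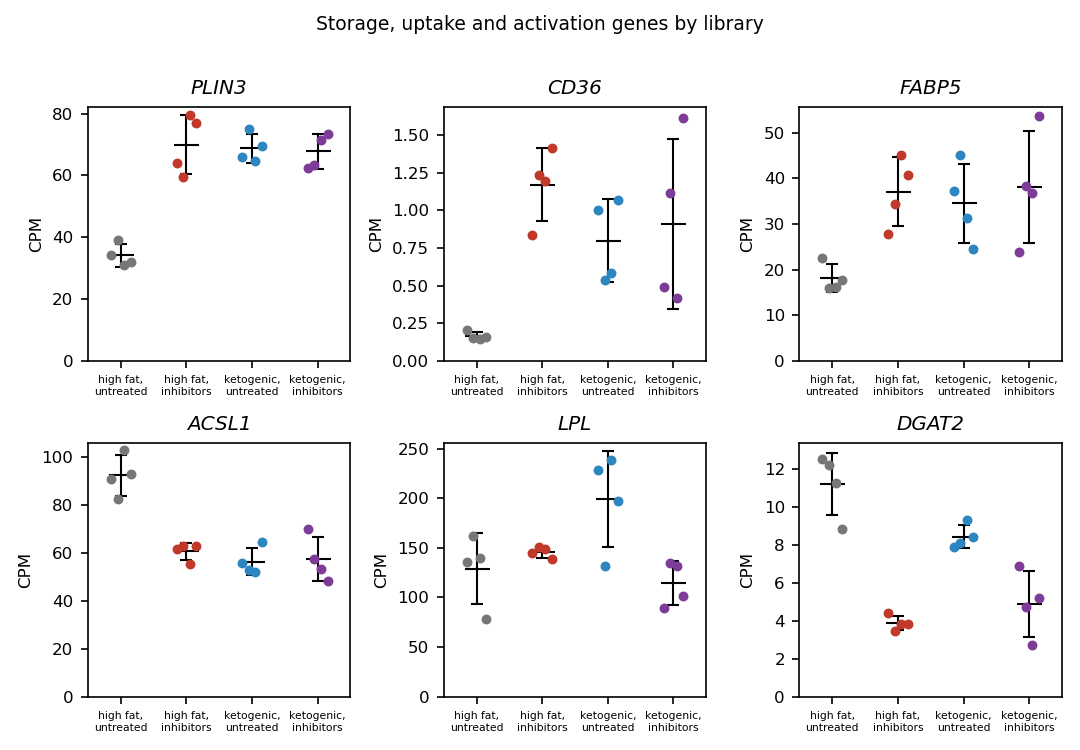
CPM of 6 genes of droplet storage, uptake, activation and triglyceride assembly in each library, with group means and bars of 1 SD, 4 libraries per group, on linear axes from 0. For PLIN3, CD36 and FABP5 the untreated high fat libraries lie below all other 12 libraries, and for ACSL1 above them. LPL is highest in the untreated ketogenic group, and DGAT2 is lower with inhibitors on each diet.

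Of the glycerolipid assembly genes only DGAT2 changed, 1 of 6, with inhibitors on the high fat diet, where 42.3% of all genes changed. DGAT2, which adds the last acyl chain of triglyceride (chr11:75759512-75801535), read 12.5, 12.2, 11.2 and 8.85 CPM untreated and 4.38, 3.48, 3.82 and 3.82 CPM treated on the high fat diet. In ketogenic libraries it read 7.90, 8.11, 9.29 and 8.39 CPM untreated and 6.91, 4.72, 2.70 and 5.17 CPM treated. Treated and untreated libraries did not overlap on either diet. DGAT2 fell by 1.53 (SE 0.21, adjusted p 7.83e-05 by edgeR) on the high fat diet. The ketogenic change was -0.79 (SE 0.21) with an adjusted p of 0.0618 by edgeR and 0.00713 by DESeq2. The difference of these effects was 0.75 (SE 0.29, adjusted p 0.108 by edgeR).

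DGAT1, the other enzyme of that step, did not change, with group means of 28.6 to 32.2 CPM. LPIN1, a phosphatidate phosphatase, read 47.1, 47.3, 51.9 and 42.0 CPM and 44.4, 40.1, 41.3 and 45.02 CPM in the high fat groups, then 44.8, 38.5, 43.3 and 39.7 CPM and 37.8, 44.3, 44.8 and 32.9 CPM in the ketogenic groups. All 4 groups overlapped. GPAM, which adds the first acyl chain, averaged 18.8 to 23.5 CPM, AGPAT2, which adds the second, 37.7 to 41.4 CPM, and LPIN2, a further phosphatase, 28.7 to 33.3 CPM by group, with no call in any comparison.

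In droplet storage 1 of 3 genes rose with inhibitors on the high fat diet, where 20.6% of all genes rose. Between the untreated diets 2 of 3 were higher on the ketogenic diet, against 7.99% of all genes. PLIN3, a perilipin that coats nascent droplets (chr19:4838341-4867768), had the lowest p of the 46 genes in the high fat and untreated diet comparisons. It read 34.1, 39.2, 31.2 and 32.0 CPM in the untreated high fat libraries. With inhibitors it read 64.0, 59.6, 79.5 and 76.9 CPM, and in the ketogenic groups 65.9, 75.0, 64.8 and 69.6 CPM untreated and 62.5, 63.5, 71.6 and 73.5 CPM treated. The untreated high fat libraries lay below the other 12, which overlapped each other. PLIN3 rose 2.05-fold with inhibitors on the high fat diet (log2 1.04, SE 0.11, adjusted p 1.33e-05 by edgeR) and was 2.02-fold higher on the untreated ketogenic diet (log2 1.01, SE 0.11, adjusted p 0.000623 by edgeR). In the diet comparison its p was the lowest of all 16012 genes. With inhibitors on the ketogenic diet the change was -0.02 (SE 0.11), and the difference of effects was -1.06 (SE 0.15, adjusted p 0.00421 by edgeR).

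No single left-out library took away the 3 calls of PLIN3, with adjusted p of at most 0.000114, 0.00614 and 0.0155. Without the 3 libraries over 30% ribosomal RNA, a fit chosen after seeing the data, the diet effect on PLIN3 was 1.00 with an adjusted p of 0.0536. In that fit no gene passed in the untreated diet comparison or in the difference of effects, and ACSL1, CD36 and FABP5 had diet effects of -0.69, 2.26 and 0.61. PLIN3 shares 502 exon bases (17.8%) with an antisense transcript, AC027319.1, so without a stated strand setting some of its reads may belong to it.

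PLIN2, the most abundant droplet protein here, did not change. It read 267, 238, 243 and 255 CPM and 230, 245, 284 and 283 CPM in the high fat groups, and 255, 371, 235 and 327 CPM and 235, 252, 245 and 373 CPM in the ketogenic groups. HILPDA, a hypoxia-inducible inhibitor of the lipase PNPLA2 (chr7:128455849-128458418), was higher on the untreated ketogenic diet. It read 5.28, 4.92, 5.62 and 4.41 CPM and 6.09, 5.43, 7.14 and 7.11 CPM on the high fat diet, and 6.53, 6.57, 7.89 and 7.47 CPM and 5.25, 7.45, 6.98 and 7.48 CPM on the ketogenic diet. The untreated groups did not overlap, at 0.49 (SE 0.15, adjusted p 0.0381 by edgeR), but leaving out any of the 8 libraries raised the adjusted p to between 0.0554 and 0.0938. HILPDA shares 175 and 186 exon bases with AC010655.4 and AC010655.2 on its own strand, so some of its reads may belong to them.

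All 4 lipolysis genes changed on the high fat diet, 3 higher and 1 lower, with a median of 0.56, where 20.6% of all genes rose and 21.7% fell. PNPLA2, which begins triglyceride breakdown (chr11:818902-825573), rose from 60.5, 59.5, 52.6 and 66.3 CPM to 90.6, 81.2, 89.0 and 81.4 CPM. In the ketogenic groups it read 64.8, 70.7, 61.3 and 67.0 CPM and 82.5, 59.3, 70.8 and 85.9 CPM. Its changes were 0.52 (SE 0.11, adjusted p 0.00145) without overlap and 0.18 (SE 0.11, adjusted p 0.395) with overlap, by edgeR. PNPLA2 shares 401 exon bases (10.4%) with an antisense transcript, AP006621.1, so some of its reads may belong to that transcript. ABHD5, the co-activator of PNPLA2 (chr3:43690108-43734371), rose from 15.04, 16.5, 18.02 and 15.2 CPM to 22.7, 22.1, 28.1 and 25.0 CPM. Among ketogenic libraries it stood at 19.3, 19.5, 17.7 and 17.9 CPM untreated and 22.0, 21.4, 21.7 and 27.5 CPM treated. Its groups were apart on both diets, with changes of 0.60 (SE 0.11, adjusted p 0.000543) and 0.32 (SE 0.11, adjusted p 0.138) by edgeR.

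MGLL, which cleaves the last ester bond (chr3:127689062-128052190), rose from 54.9, 60.7, 54.0 and 84.3 CPM to 153, 127, 105 and 106 CPM on the high fat diet. In ketogenic libraries it went from 75.8, 32.8, 70.3 and 46.1 CPM to 127, 88.1, 77.2 and 92.7 CPM. The groups did not overlap on either diet. The changes were 0.96 (SE 0.24, adjusted p 0.0048) and 0.77 (SE 0.24, adjusted p 0.102) by edgeR, with an adjusted p of 0.0272 by DESeq2 for the second. LIPE, hormone-sensitive lipase, was low and fell by 0.63 (SE 0.23, adjusted p 0.0406 by edgeR), from 1.98 to 2.58 CPM to 1.29 to 2.06 CPM with overlap, and lost that call in 6 of 8 fits without 1 library. It shares 500 exon bases with LIPE-AS1 on the opposite strand.

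The pattern in which the untreated high fat group stands apart from the other 3 was also seen in some markers of other cells. LYZ, of the macrophage list, averaged 0.550 CPM in that group and 3.73, 3.61 and 3.45 CPM in treated high fat, untreated ketogenic and treated ketogenic libraries. CD68, the most abundant of that list, averaged 53.6, 34.4, 46.4 and 46.6 CPM in the same order. With inhibitors on the high fat diet CD68 fell by 0.64 (SE 0.21, adjusted p 0.0227 by edgeR). There 3 of the 6 tested members of the list had positive changes and 3 negative ones. CORO1A averaged 0.808, 5.28, 6.05 and 4.78 CPM in the same order, and made up most of the pan-leukocyte list, which summed to 0.840 to 1.95 CPM in the untreated high fat libraries and 4.41 to 8.58 CPM in the other 12. The other tested members of that list did not share the order: LCP1 averaged 0.473, 1.89, 0.333 and 1.58 CPM and PTPRC 0.0890, 0.284, 0.0556 and 0.164 CPM, lowest in the untreated ketogenic group, and MS4A1 had no count in any library. The lung epithelial list was highest in the untreated high fat libraries, at 6.8 to 9.93 CPM against 3.25 to 5.78 CPM in the other 12. AGER, its most abundant member over all libraries, averaged 2.39, 1.18, 1.39 and 2.06 CPM. LAMP3 averaged 3.67, 0.654, 1.05 and 0.796 CPM, while the surfactant gene SFTPC averaged at most 0.0168 CPM in any group. CLDN18 went the other way on the high fat diet, at 0.305 CPM untreated and 0.504 CPM with inhibitors. Of the 5 tested members of the lung list, 1 had a positive change there and 4 negative ones, with 3 called lower. The fibroblast list also had its highest sum in the untreated high fat libraries, at 138 to 158 CPM against 54.4 to 132 CPM. FBLN1 and ACTA2 led it, with means of 49.8, 21.9, 40.7 and 25.2 CPM and of 59.1, 16.3, 35.2 and 22.8 CPM. Its members did not move one way. COL3A1 averaged 0.934, 3.91, 2.56 and 2.62 CPM, lowest in the untreated high fat group, while COL1A1 averaged at most 1.31 CPM. With inhibitors on the high fat diet, 5 of the 9 tested had positive changes and 4 negative ones, with 1 called higher and 3 lower. The macrophage list, led by CD68, summed to 61.2 to 79.0, 49.7 to 65.7, 54.3 to 89.3 and 50.2 to 80.8 CPM by group, with MPO at 0, so that its groups overlapped. The fat cell list summed to 15.8 to 18.4 CPM untreated and 4.77 to 6.05 CPM with inhibitors on the high fat diet, nearly all of it LEPR. The endothelial list summed to 17.0 to 36.5 CPM and 71.9 to 82.5 CPM there, most of it KDR, while CDH5 averaged at most 0.0169 CPM. The part of other cells in the results on the lipid genes was not tested.

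Other genes of the pathway, taken from lists set beside the 46, gave a similar picture of mixed directions on the high fat diet and no call with inhibitors on the ketogenic diet. Among 14 genes of SREBP and LXR control, 13 were tested, 2 rose and 3 fell with inhibitors on the high fat diet, where 42.3% of all genes changed, the share against which this count and those of the next lists are to be read. SREBF2, which encodes the cholesterol-directed SREBP-2, fell from a mean of 149 to 88.3 CPM (log2 change -0.75, SE 0.23, adjusted p 0.0151 by edgeR). SCAP, its escort protein, fell by 0.27 (SE 0.08, adjusted p 0.0143 by edgeR), while RXRA, the partner receptor of LXR, rose by 0.34 (SE 0.11, adjusted p 0.0184 by edgeR). By library, SREBF2 read 169, 159, 180 and 87.8 CPM untreated and 107, 102, 67.7 and 76.3 CPM treated on the high fat diet. Its untreated replicate 4 thus lay among the treated libraries. In the fit of all 16 libraries SREBF1 and SREBF2 changed in opposite directions, and SREBF1 lost its call without the 3 libraries over 30% ribosomal RNA.

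Of 17 other synthesis, elongation and activation genes, 13 were tested, and 1 rose and 1 fell on the high fat diet with inhibitors. MECR, the enoyl reductase of mitochondrial synthesis, fell by 0.72 (SE 0.14, adjusted p 0.00107 by edgeR). HACD3 and TECR, which carry out the dehydration and last reduction of elongation, were higher on the untreated ketogenic diet by 0.42 (SE 0.10, adjusted p 0.0118) and 0.62 (SE 0.17, adjusted p 0.0269) by edgeR. Of 14 other glycerolipid genes, 12 were tested, 1 rose and 2 fell. AGPAT4, an acyltransferase, fell from a mean of 11.1 to 3.83 CPM (log2 change -1.53, SE 0.19, adjusted p 4.48e-05 by edgeR), and SOAT1, which makes cholesteryl esters, rose by 0.62 (SE 0.13, adjusted p 0.00144 by edgeR). CDS1, which makes CDP-diacylglycerol, changed by -1.49 (SE 0.43, adjusted p 0.0889 by edgeR) on the ketogenic diet.

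Of 15 other droplet genes, 9 were tested, and 2 rose and 2 fell with inhibitors on the high fat diet. RAB18, a droplet GTPase, rose by 0.43 (SE 0.09, adjusted p 0.00119 by edgeR) and AUP1, a droplet protein of the degradation machinery, by 0.42 (SE 0.11, adjusted p 0.00659 by edgeR). PLIN1, the perilipin of fat cells, was near the limit of detection, at 0.460 CPM in the untreated high fat and 0.0295 CPM in the untreated ketogenic group (log2 change -3.94, SE 0.69, adjusted p 0.00366 by edgeR). Of 18 other uptake genes, 9 were tested, and 2 rose and 3 fell. MFSD2A, a transporter of lysophosphatidylcholine, rose by 1.12 (SE 0.22, adjusted p 0.00102 by edgeR), LMF1, which matures LPL, fell by 1.05 (SE 0.25, adjusted p 0.00368 by edgeR), and LIPC, hepatic lipase, fell from a mean of 1.21 to 0.0546 CPM (log2 change -4.41, SE 0.91, adjusted p 0.00133 by edgeR).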

How the data were processed

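The deposited values are expected counts (estimated counts per gene) that the authors made with Bowtie2 2.1.0 and RSEM 1.2.15 on hg38, per the submitters' processing notes. Which annotation and strand setting were used, and whether reads of the mouse host were removed, is not given in the sources used here. Counts were rounded, since 13.0% were not whole. Genes were kept by edgeR's filterByExpr, scaled by TMM and tested with edgeR's quasi-likelihood test in 1 fit of all 16 libraries, with 1 mean per group, no covariate, and Benjamini-Hochberg adjustment at 0.05 (R 4.3.3, edgeR 4.0.16, limma 3.58.1, DESeq2 1.42.0). Alternatives were DESeq2, limma's voom with quality weights, other scalings and filters, a replicate block, ribosomal RNA as a covariate, and leaving out libraries. The scripts were tested on simulated data. All 46 genes are named. Values for every library are given for the 8 genes with the smallest p in each comparison and the most abundant gene of each role, and for a few genes more that were chosen after their values were seen. The members and lists were chosen with earlier results of these data known. Gene coordinates are GENCODE 29 on the same build, and promoters are from RefSeq.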

Additional observations from a re-analysis of the deposited data

Results flagged for a closer look

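The 27 genes that the rule gives in every library do not include ACACA, added later, or FADS3. For each of the 27, the 4 groups were examined for a library far from the other 3 of its group, 108 groups in all. Chance flags about 1 in 20 such groups, and 10 were found. The libraries that stood apart were untreated high fat replicate 4 for FASN (269 CPM) and ACACB (3.62 CPM), treated high fat replicate 3 for FASN (404 CPM) and replicate 2 for ACACB (5.19 CPM). In the untreated ketogenic group they were replicate 2 for FADS1 (144 CPM) and replicate 1 for MLXIPL (1.01 CPM). In the treated ketogenic group they were replicate 1 for MLXIPL (0.900 CPM), replicate 2 for ACSL3 (512 CPM), and replicate 4 for PLIN2 (373 CPM) and ABHD5 (27.5 CPM). FADS3 was not examined, and its untreated high fat replicate 4 read 25.7 CPM against 8.33 to 10.9 CPM in the other 3.

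The inhibitor effect differed between the diets, by edgeR's test of the difference itself, for 4 genes. The log2 difference, ketogenic minus high fat, was -1.06 for PLIN3, -2.61 for CD36, -0.97 for LPL and 0.63 for ACSL1. With ribosomal RNA share in the model the difference kept its call for PLIN3 (adjusted p 0.034 by edgeR) and lost it for CD36, LPL and ACSL1, and under scaling by library size alone it was lost for LPL and ACSL1. Without the 3 libraries over 30% ribosomal RNA it was lost for all 4. That fit keeps only replicates 1 and 4 of the untreated high fat group, and no gene at all passed for the difference in it.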

How the results depend on the processing

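Of 1063 values of 53 results on single lipid genes under alternatives, 949 kept direction and side of the threshold, 75 lost and 39 gained a call, and 0 turned. Lipid genes called numbered 21 (inhibitors, high fat), 0 (inhibitors, ketogenic), 5 (diets, untreated), 0 (diets, inhibitors) and 4 (difference of effects). DESeq2 called 5 with inhibitors on the ketogenic diet. Scaling by library size alone gave 5 there and 2 for the difference. Voom with quality weights gave 32, 6, 14, 4 and 17 in that order. Ribosomal RNA as a covariate gave 1 for the difference. Without the 3 libraries over 30% ribosomal RNA, chosen after seeing the data, the counts were 13, 1, 0, 0 and 0. Leaving out 1 library gave 18 to 27, 0 to 2, 4 to 5, 0 to 0 and 2 to 6. Without untreated high fat replicate 4 the 27 were 11 higher and 16 lower. The cause of these moves was not tested.

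Over all genes, 6771, 279, 2163, 27 and 1444 were called. For inhibitors on the ketogenic diet DESeq2 gave 849, library size alone 981, only the libraries compared 56, the covariate 0, voom 1456 and the fit without 3 libraries 53. For the diets with inhibitors these were 329, 1, 0, 0, 1057 and 3. For the difference DESeq2 gave 2437, library size alone 238, the covariate 30, voom 5208 and the fit without 3 libraries 0. For the untreated diets only the libraries compared gave 3346, voom 6393 and the fit without 3 libraries 0, and for inhibitors on the high fat diet that fit gave 3858. Leaving out 1 library gave 5446 to 6779, 88 to 437, 778 to 2640, 3 to 47 and 407 to 2636. The difference has no value with only the libraries compared.

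With the replicate number as a block, 21, 0, 7, 0 and 4 lipid genes were called, adding MLXIPL (-1.74) and LPL (0.65) between the untreated diets, and 6826, 262, 2241, 21 and 1433 of all genes. The labels do not say whether the same number marks a shared animal, cage or day, and the correlations cannot settle it. Deviations of same-numbered libraries correlated at -0.153 to 0.207, over 0.1 in 4 of 24 pairs. Of 16 libraries, 4 were closest to their own number. Genes under 1 CPM, such as CD36 and PLIN1, rest on few counts.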
